A study of Homo sapiens with 32 samples.

Results

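Broad start-site clusters are stretches of at least 300 bp over which transcription started at many neighbouring bases, and 1848 of the 19534 clusters of an androgen time course in LNCaP cells (9.46%) met that width. They were chosen by the end minus the start of each cluster alone, and clusters on the mitochondrial genome were set aside (67, of which 18 were wide enough). The other 17619 nuclear clusters served for comparison. Position and width came from the deposited table in the coordinates of hg19, which pairs no cluster with a gene, so clusters are named here by place.

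Cap analysis of gene expression (CAGE) captures the 5′ caps of RNAs and counts the bases at which they begin, so that a run of neighbouring start sites forms a cluster. Promoters that start transcription over a wide span are commonly rich in CpG and serve widely expressed genes, whereas promoters with a TATA box tend to start at 1 or a few bases. A wide cluster can also arise where capped or recapped fragments of an abundant RNA are read along its body. The androgen receptor is a hormone-activated transcription factor on which many prostate cancer cells depend, and it raises or lowers transcription of its target genes after binding an androgen.

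The libraries came from 2 prostate cancer cell lines, LNCaP, an androgen-responsive line, and BicR, which the labels do not describe further. Both were grown in medium with 10% serum and kept for 3 days in 2.5% serum stripped of hormones. The first experiment gave LNCaP the synthetic androgen R1881 over a course of 0, 3, 6, 12, 18, 48 and 72 h, with 2 libraries per time and no vehicle sample after 0 h, so time in culture and R1881 cannot be told apart. The sample labels give 1 nM R1881, whereas the protocol shared by all samples gives 10 nM for 24 h, and the dose is therefore uncertain. In the second experiment each line had an untreated library at 0 h and 1 library at 6 h and 1 at 24 h with ethanol (the vehicle), with 10 nM dihydrotestosterone (DHT, a natural androgen), with 1 µM bicalutamide (an androgen receptor antagonist), or with both. Nothing states that libraries came from separate cultures, so p-values measure the spread between these libraries. In the second experiment the 6 h and 24 h libraries of a treatment stood in for replicates. The spread there is how far treatment effects deviated between these times, so a response that differed between them counts as spread.

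Depth ran from 128463 to 3837493 tags in the 14 R1881 libraries and from 4139807 to 7753336 in the other 18. Every replicate 1 library of the time course was shallower than every replicate 2 library, the deepest of replicate 1 holding 1075743 tags and the shallowest of replicate 2 holding 1357958. Over broad clusters the log-scale correlation between replicates was 0.91 to 0.93 at 0, 3, 12, 48 and 72 h, but 0.71 at 6 h and 0.75 at 18 h. Over the other clusters it was low at the same times, 0.60 at 6 h and 0.57 at 18 h. Values are given as the RPM of the deposited table, tag counts scaled to library size, and 3 tags were worth 0.691 to 19.4 RPM in the R1881 libraries, which bounds what a value of 0 means there.

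Broad clusters were more heavily used than narrow ones. Their median width was 385 bp against 130 bp for the others, and the widest spanned 5269 bp. The median number of tags summed over the 14 R1881 libraries was 793.5 per broad cluster (quartiles 229 and 2106) and 228 per other cluster. At 0 h, 361 broad clusters (19.5%) held at least 100 RPM on average and 20 held at least 1000 RPM, against 5.89% and 0.35% of the others. Only 8 broad clusters had no tag in both libraries at 0 h.

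Width and tag number went together up to a point. With the nuclear clusters in 10 equal bins by summed tags, 0.15% of the clusters in the bin with fewest tags were broad, 6.57% to 8.58% in the middle bins, 16.6% in the ninth and 26.7% in the bin with most tags (518 of 1942). Across all nuclear clusters the Spearman correlation of width with tags was 0.53 (n = 19467), and within the broad clusters it was −0.015 (n = 1848). Both are descriptions across clusters of the same libraries, and a cluster with more tags has more chances to reach an outlying start. Of the broad clusters 1016 were 300 to under 400 bp wide, 554 were 400 to under 600 bp and 278 were at least 600 bp, 50 of these reaching 1000 bp. The widest class had the lowest median, 426.5 tags, against 815.5 and 949. For this reason position, calls and median changes below are set beside other clusters weighted to the broad clusters' spread over the 10 bins, called clusters with like summed tags; where only "other clusters" is written, no such weighting was made.

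**Figure D1:**
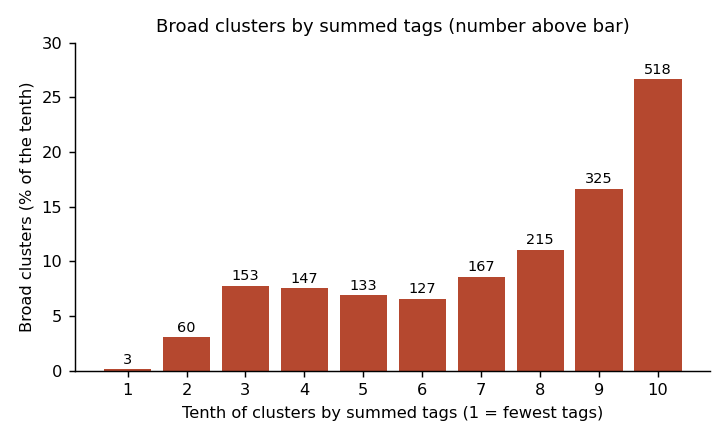
Percentage of nuclear clusters that were at least 300 bp wide (vertical axis) in each of 10 equal bins by tags summed over the R1881 libraries (horizontal axis), with the number of broad clusters above each bar. The share ran from 0.15% in the lowest bin to 26.7% in the highest.

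Values on either side of the 300 bp edge are given without a test. The 13 clusters of exactly 300 bp had a median of 970 summed tags (62 to 5836), and the 13 that were 1 bp narrower a median of 409 (45 to 10211). The 2 with most tags just inside were chr22:29196313-29196612 on the minus strand, at 112 and 129 RPM in the 0 h libraries, and chr7:75508258-75508557 on the plus strand, at 97.3 and 80.2 RPM. Just outside, the first 2 were chr14:68086547-68086845, at 332 and 161 RPM, and chr3:87276367-87276665, at 49.8 and 74.7 RPM, both on the plus strand. At 72 h the 4 stood at 374 and 240, 190 and 133, 797 and 640, and 69.0 and 92.1 RPM, in the order named.

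The start position in each cluster's name lay nearer its 5′ end in broad clusters. It sat at a median of 36.6% of the width from the 5′ end (148 bp in), against 49.5% in clusters with like summed tags, and 67.3% of broad clusters had it on the 5′ side of their middle against 50.6%. The tables do not say how that position was chosen, and it need not be the base with most tags. Broad clusters thus reached further downstream than upstream of the named position.

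Broad clusters were also crowded on their own strand. Another cluster lay within 100 bp on the same strand for 19.3% of them and within 500 bp for 33.3%, against 8.31% and 18.9% of clusters with like summed tags. On the opposite strand a cluster lay within 500 bp of 24.5%, which was less than the 30.7% of clusters with like summed tags. An overlapping cluster on the opposite strand was about as frequent in both, 13.6% and 12.8%. No 2 clusters of one strand were closer than 19 bp, a limit that the authors' clustering may set. Chromosome 19 held 5.57% of broad clusters against 7.46% of clusters with like summed tags, and chromosome 1 held 12.3% against 10.3%.

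Of the 1848 broad clusters 956 had the same identifier in the second experiment's table (51.7%, against 60.2% of clusters with like summed tags). That table lists single positions, 13294 in all, without widths. A position of it fell inside 1382 broad clusters, and 16 of them held more than 1. Where the identifier was shared, the untreated LNCaP level in the second experiment lay below the 0 h level of the first in the widest class, with a median log2 ratio of −0.72 for clusters of at least 600 bp. The medians were −0.12 and −0.08 in the 2 narrower broad classes and 0.10 in the other clusters (n = 7560). Whether the second table counted tags over a narrower span was not tested.

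The single widest cluster was also the one with most tags. It lay on the plus strand at chr11:65266463-65271731, spanned 5269 bp, held 566803 tags or 2.88% of all nuclear tags of the time course, and its named position was 53 bp from its 5′ end. At 0 h it stood at 1978 RPM in replicate 1 and 10193 RPM in replicate 2, and at 72 h at 8808 and 55802 RPM. Replicate 2 exceeded replicate 1 at every time, by more than 5-fold at 0 h. The replicates at 48 h (6582 and 28413 RPM) overlapped those at 0 h, and the log2 change was 1.60 (SE 0.98, adjusted p = 0.58). At 72 h it was 2.53 (SE 1.01, adjusted p = 0.22). With the replicate number as a block, which compares each library with the 0 h library of its own number, the changes were 1.65 (SE 0.45, adjusted p = 0.0229) and 2.43 (SE 0.46, adjusted p = 0.00111). In the second experiment the same cluster was lower in BicR: 7937 and 13789 RPM in LNCaP with ethanol at 6 and 24 h against 2594 and 3467 RPM in BicR. That log2 difference was −1.74 (SE 0.33, adjusted p = 0.00776).

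The next 2 by width were sparse. A cluster of 4660 bp on the plus strand at chr15:89738438-89743097 held 28.5 and 38.0 RPM at 0 h, 88.7 and 138 RPM at 48 h, and 132 and 121 RPM at 72 h. The 48 h and 72 h libraries all lay above the 0 h libraries. Its log2 change passed the test at 72 h (1.98, SE 0.45, adjusted p = 0.0302) and just missed it at 48 h (1.83, SE 0.45, adjusted p = 0.0509). A cluster of 2567 bp on the minus strand at chr1:55315513-55318079 held 14.2 and 16.3 RPM at 0 h and 88.7 and 82.0 RPM at 48 h. It rose at both late times, by a log2 change of 2.53 at 48 h (SE 0.50, adjusted p = 0.0183) and of 2.43 at 72 h (SE 0.49, adjusted p = 0.0187). Neither identifier was in the second table, although 3 and 2 of its positions lay inside them.

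Among the 5 clusters with most tags, the one on chromosome 11 and the 2 on chromosome 19 had their highest mean levels at 72 h. The cluster at chr19:18496833-18497279 on the plus strand, 447 bp wide, held 617 and 964 RPM at 0 h, 542 and 457 RPM at 6 h, 3390 and 1094 RPM at 18 h, 17842 and 13080 RPM at 48 h, and 11523 and 34407 RPM at 72 h. All 4 late libraries lay above all earlier ones. Its log2 change was 4.35 at 48 h (SE 0.72, adjusted p = 0.00796) and 4.96 at 72 h (SE 0.74, adjusted p = 0.00386). The cluster at chr19:51358062-51358959 on the plus strand, 898 bp wide, held 2599 and 1532 RPM at 0 h, 11062 and 5010 RPM at 48 h, and 11907 and 6584 RPM at 72 h. Its libraries at 48 and 72 h did not overlap those at 0 h, but the test missed the threshold without the block (72 h, log2 change 2.21, SE 0.58, adjusted p = 0.059) and passed it with the block (2.21, SE 0.40, adjusted p = 0.000707).

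At the other 2 of the 5 the replicates differed widely in the size of their changes. The cluster at chr21:9826595-9827211 on the plus strand, 617 bp wide, held 16713 and 4255 RPM at 0 h but 6846 and 368 RPM at 6 h and 6041 and 371 RPM at 18 h. Both low values were in replicate 2. No R1881 change passed the test there without the block, and with the block the 18 h change did (log2 −2.02, SE 0.66, adjusted p = 0.0469). The cluster at chr7:75931635-75932020 on the plus strand, 386 bp wide, held 1842 and 3334 RPM at 0 h, 872 and 606 RPM at 6 h, and 3106 and 12828 RPM at 48 h. The replicates at 48 h overlapped those at 0 h, and none of its R1881 changes passed the test with or without the block.

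The share of nuclear tags that fell in broad clusters grew late in the time course. In the libraries of 0 h it was 20.9% and 21.0%, after 3 h 20.4% and 21.9%, and after 6 h 20.2% and 20.5%. After 12 h it was 22.9% and 23.8%, and after 18 h 21.1% and 23.4%. It then reached 28.2% and 28.8% at 48 h and 27.4% and 32.5% at 72 h, so all 4 late libraries lay above the 10 earlier ones. These shares are given without a test.

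A few clusters carried much of that gain. The mean share grew by 7.55 percentage points from 0 to 48 h and by 9.02 points to 72 h. The chr19:18496833-18497279 cluster alone went from 0.097% of tags to 1.84% and 2.73%, and the widest cluster from 0.75% to 2.16% and 3.84%. Without the 5 clusters with most tags the share in the others was 18.5% and 18.98% at 0 h, 24.0% and 22.6% at 48 h, and 23.6% and 22.4% at 72 h, so it remained higher late. At 0 h, 90 and 107 clusters made up 50% of the broad clusters' tags, 55 and 51 did at 48 h, and 65 and 20 did at 72 h. The 72 broad clusters called higher at any time, which were chosen by these same values, went from 0.51% and 0.64% of tags at 0 h to 5.79% and 4.48% at 48 h. In the second experiment the 956 shared clusters held 14.8% to 17.0% of tags in LNCaP and 14.3% to 15.98% in BicR.

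**Figure D2:**
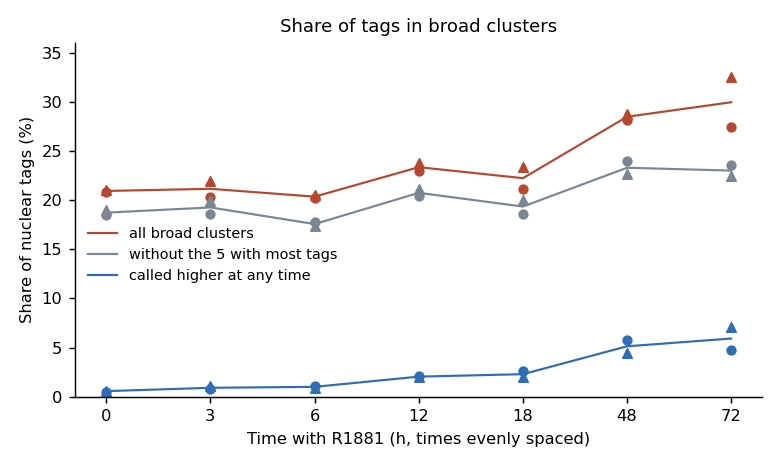
Share of nuclear tags (%, vertical axis) in all 1848 broad clusters, in the same without the 5 with most tags, and in the 72 called higher at any time, by hours with R1881; circles are replicate 1, triangles replicate 2, lines the means of 2 libraries. All 4 libraries of 48 and 72 h lie above the earlier ones for all broad clusters, up to 32.5%.

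With R1881 more broad clusters were called higher than lower at every time that had calls, whereas the number called depended strongly on the fit. The counts come first without and then with the replicate block. A cluster is called when its adjusted p from a model fitted over all 15999 clusters that had enough tags is under 0.05, and 1749 of the 1848 broad clusters were tested. At 3 h and at 6 h no broad cluster was called, as for all clusters tested (0%). Unadjusted p-values under 0.05 numbered 63 and 334 among the 1749 broad clusters tested, and DESeq2 called 2 and 29. The same counts over all clusters are not given, so these are not read as changes. At 12 h 13 were called higher (0.743%, against 0.225% of clusters with like summed tags and 0.231% of all tested) and none lower (0% of all tested).

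At 18 h 31 were higher (1.77%, against 0.720% with like summed tags and 0.713% of all tested) and 6 lower (0.343%, against 0.308% and 0.275%). At 48 h 56 were higher (3.20%, against 1.48% and 1.39%) and 15 lower (0.858%, against 0.472% and 0.494%). At 72 h 57 were higher (3.26%, against 1.66% and 1.51%) and 19 lower (1.09%, against 0.946% and 0.988%). The share called higher thus exceeded that of clusters with like summed tags at each of these times, whereas the share called lower at 18 and 72 h was close to the background. Tags were summed over these same libraries, and the sources do not say which libraries set the widths. Whether clusters that gained tags late reached 300 bp through the late libraries was not tested. That limit applies to the tag shares and median changes of the time course as well. No test was made of the difference between shares, since clusters are not replicates. The comparisons of different times share the 0 h libraries.

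Within the broad clusters the share called higher was largest in the widest class at the late times. At 48 h it was 2.83% of clusters of 300 to under 400 bp, 3.04% of 400 to under 600 bp and 4.83% of at least 600 bp (13 of 269), and at 72 h 2.73%, 3.04% and 5.58% (15 of 269). The share called lower was also largest there, at 0.735%, 0.759% and 1.49% at 48 h and 1.05%, 0.949% and 1.49% at 72 h (4 of 269 each time). With the block the widest class had 16.4% called higher at 48 h, the most, and 2.60% called lower, the least. No class was set beside clusters with like summed tags. Without the block, called rises at 48 h had a median log2 change of 3.31 and ran from 1.70 to 8.90. Called falls had a median of −3.23 and ran from −7.10 to −2.34. At 72 h rises ran from 1.44 to 8.57 (median 3.12) and falls from −8.54 to −1.99 (median −3.25). Every called broad cluster at 48 and 72 h had libraries that did not overlap those at 0 h. The calls were made on these same libraries and favour such clusters, so this is no separate support. The share over all clusters is not given.

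These counts rest on few libraries. Shares over all clusters are not given for the fits that follow, so their counts are not read as a result about broad clusters. Leaving out any 1 of the 4 libraries compared brought the broad clusters called at 48 h from 71 to between 11 (without either 0 h library) and 25 (without replicate 2 at 48 h; 24 without replicate 1). At 72 h the count went from 76 to 20 and 16 without replicate 1 or 2 at 0 h, and to 43 and 28 without replicate 1 or 2 at 72 h. For 12 h none was called without either 0 h library, and 5 and 6 were without replicate 1 or 2 of that time. For 18 h none was called without either 0 h library, 79 without replicate 1 of that time and 7 without replicate 2. Without replicate 1 at 6 h 63 were called there.

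The 2 replicates of different times deviated together, and taking the replicate number as a block raised the total called at every time. With the block, 12 broad clusters were called higher at 3 h (0.288% of all tested) and none lower (0%). At 6 h 100 were higher and 89 lower (2.84% and 3.78% of all tested), and at 12 h 72 higher and 9 lower (1.64% and 0.331%). At 18 h the block gave 199 higher and 136 lower (6.39% and 6.63% of all tested). For 48 h it gave 195 higher and 63 lower (4.96% and 3.58%), and for 72 h 242 higher and 118 lower (6.28% and 5.89%). The counts with the block did not grow steadily with time, since the total of 335 at 18 h exceeded the 258 at 48 h, and the 189 at 6 h exceeded the 81 at 12 h. Set against clusters with like summed tags in the same fit, the higher calls remained more frequent among broad clusters, at 11.1% against 5.19% at 48 h and 13.8% against 6.65% at 72 h. The lower calls were at 3.602% against 3.59% and 6.75% against 5.76%.

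**Figure D3:**
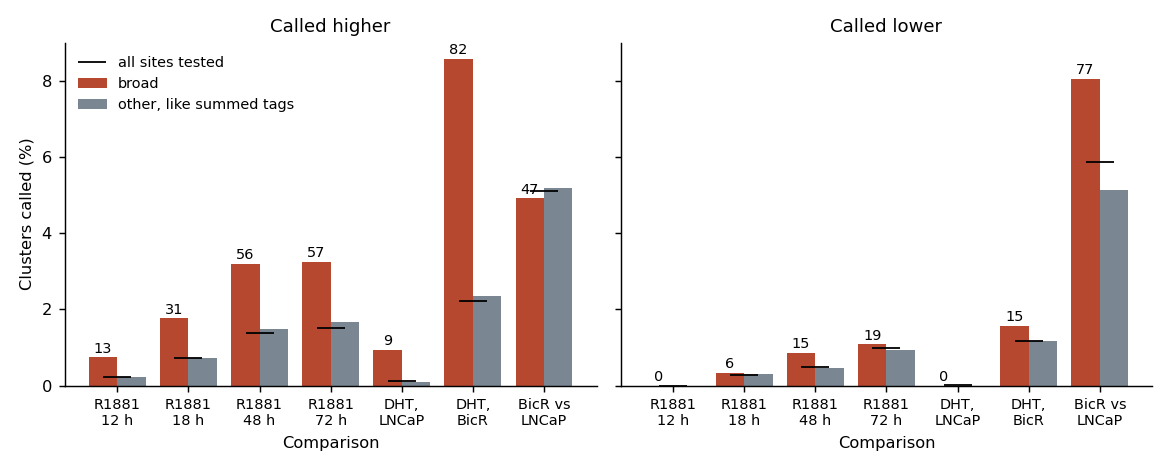
Percentage of clusters called higher (left) and lower (right) in 7 comparisons, for broad clusters (red bars, number called above), other clusters weighted to like summed tags (grey bars) and all sites tested (black dashes), from the fit without a replicate block. The widest gap is for DHT in BicR, 8.58% against 2.35% called higher. Widths and summed tags are those of the R1881 time course in every comparison.

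The change was not limited to called clusters, though it was small. Over all 1848 broad clusters, fitted with no filter on low counts, the median log2 change was 0.16 at 48 h and 0.22 at 72 h, against −0.03 and 0.02 for clusters with like summed tags. At 48 h 1085 of the 1848 were above 0 (58.7%, against 48.8%), and at 72 h 1097 (59.4%, against 51.7%). The observed medians on log2(RPM + 1), each library against the 0 h library of its number, were smaller, at 0.05 and 0.07 for 48 h and 0.22 and 0.05 for 72 h, against −0.04 and −0.03 and 0.00 and −0.09 in the other clusters. At 3 and 6 h the fitted medians of broad clusters were −0.02 and 0.02. The 300 to under 400 bp and the at least 600 bp classes had similar medians at 48 h, 0.16 and 0.18. These are changes relative to the library's own scale, and normalization on the clusters shared by all libraries sets the middle of that scale near 0.

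The largest rises with R1881, by the fixed rule, were on chromosomes 4 and 11. The 400 bp cluster at chr4:175443521-175443920 on the minus strand had no tag in either 0 h library, 11.4 and 5.25 RPM at 6 h, 32.4 and 19.9 RPM at 18 h, 35.2 and 33.9 RPM at 48 h, and 36.5 and 19.8 RPM at 72 h. Taking 3 tags per library as the most that 0 allows at 0 h, its 48 h mean was at least 21.6-fold higher and its 72 h mean at least 17.6-fold higher. The adjusted p was 0.00114 at 48 h and 0.00128 at 72 h, and it rested on 23 and 126 tags at 48 h.

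The 631 bp cluster at chr11:134094966-134095596 on the minus strand was the other. It held 11.1 and 9.09 RPM at 0 h, 66.7 and 115 RPM at 3 h, 291 and 65.3 RPM at 6 h, 1791 and 793 RPM at 12 h, 2165 and 560 RPM at 18 h, 5761 and 2129 RPM at 48 h, and 4525 and 1096 RPM at 72 h. From 3 h on every library lay above both 0 h libraries. The log2 change first passed the test at 12 h (adjusted p = 0.012) and was 8.67 at 48 h (SE 1.09, adjusted p = 0.00168) and 8.15 at 72 h (SE 1.07, adjusted p = 0.00172).

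Falls were led by a pair of clusters on chromosome 1 that lay on opposite strands 16577 bp apart. The 590 bp cluster at chr1:222867611-222868200 on the minus strand held 752 and 575 RPM at 0 h and 787 and 520 RPM at 6 h. It then held 415 and 169 RPM at 12 h, 117 and 104 RPM at 18 h, 7.64 and 3.23 RPM at 48 h, and 4.06 and 0.691 RPM at 72 h, so the 6 h libraries overlapped those at 0 h and the late libraries were almost empty. The log2 change was −7.10 at 48 h (SE 0.73, adjusted p = 0.00048) and −8.54 at 72 h (SE 0.80, adjusted p = 0.000316). The 405 bp cluster at chr1:222884778-222885182 on the plus strand held 72.8 and 45.7 RPM at 0 h, 6.48 and 6.21 RPM at 18 h, and 1.01 and 1.38 RPM at 72 h. Its log2 change was −5.35 at 72 h (SE 0.59, adjusted p = 0.000562).

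A further large fall at 48 h was elsewhere on chromosome 1. The 919 bp cluster at chr1:20811939-20812857 on the minus strand held 792 and 489 RPM at 0 h, 416 and 127 RPM at 6 h, 117 and 27.9 RPM at 18 h, 27.5 and 23.1 RPM at 48 h, and 28.4 and 27.6 RPM at 72 h. From 6 h on its libraries lay below both 0 h libraries. Its log2 change was −4.62 at 48 h (SE 0.76, adjusted p = 0.00796), a call that was lost when 3 of the 4 libraries were left out in turn.

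**Figure D4:**
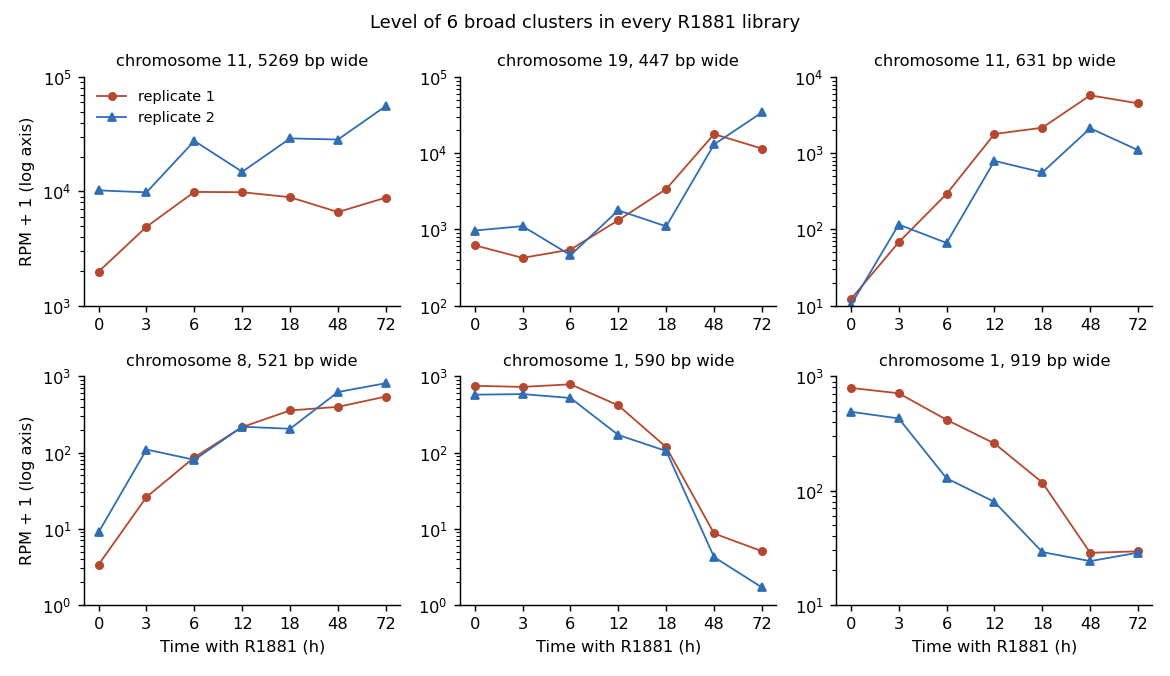
Level of 6 broad clusters (RPM plus 1, log axis) in each library against hours with R1881 (times evenly spaced), replicate 1 as circles and replicate 2 as triangles. The widest cluster shows replicates far apart at every time, the next 3 end above their 0 h level in both replicates, and the 2 on chromosome 1 end below it, down to 4.06 and 0.691 RPM for the 590 bp cluster.

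In the second experiment the question was the response to DHT in each line. The library labelled BicR with DHT and bicalutamide at 6 h stood between the lines at clusters where they differ. At chr3:164913754-164914240, for example, it held 35.9 RPM where the other BicR libraries held 0.847 to 8.71 and the LNCaP libraries 58.3 to 104. It enters none of the comparisons as a group, but it shares in the estimate of spread, so counts without it are given for each comparison of this experiment. All 956 shared broad clusters were tested among the 13294 sites of that table.

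With DHT in BicR more broad clusters were called higher than the background share. Widths and summed tags were those of the time course, most of whose libraries were taken after R1881. Whether clusters that respond to androgen reached 300 bp through those libraries was not tested. The shares called were not matched on the second experiment's own tags. In BicR 82 broad clusters were called higher (8.58%, against 2.35% of clusters with like summed tags and 2.21% of all tested) and 15 lower (1.57%, against 1.17% and 1.17%). Called rises ran from 0.52 to 4.81 on the log2 scale (median 1.32). All 82 were higher at 6 h and at 24 h alike, as calls made on these same libraries favour. Their observed medians at 6 and 24 h, on log2(RPM + 1), were 1.27 and 1.25. In LNCaP 9 were called higher (0.941%, against 0.097% and 0.12%) and none lower (0.00752% of all tested, 1 site). DESeq2 called 17 higher and 1 lower, and the unadjusted p was below 0.05 at 102 of the 956 broad clusters. Neither of these counts is given over all sites, so they are not read as changes.

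Calls with DHT were most frequent in the widest class. Among clusters of 300 to under 400 bp 7.07% were called higher with DHT in BicR (39 of 552), among those of 400 to under 600 bp 8.72% (26 of 298), and among those of at least 600 bp 16.04% (17 of 106). In LNCaP the shares were 0.725% (4 of 552), 0.336% (1 of 298) and 3.77% (4 of 106), so the middle class was the lowest there. The shares called lower in BicR were 1.45%, 1.68% and 1.89% in the same order of width. Over all 956 the median log2 change was near 0, at 0.00 in LNCaP and 0.02 in BicR, and 0.06 and 0.03 in the widest class. Rises and falls therefore nearly balanced. Regardless of direction, the median size of the log2 change was 0.13 in LNCaP and 0.19 in BicR. In clusters with like summed tags it was 0.10 and 0.14.

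The LNCaP calls were fragile, and shares over all sites are not given for the fits of this paragraph. Leaving out any 1 of the 4 LNCaP libraries compared left 0 or 1 called: 0 without ethanol at 24 h, and 1 without ethanol at 6 h, DHT at 6 h or DHT at 24 h. Without the library of BicR with DHT and bicalutamide at 6 h the LNCaP counts were 19 higher and 1 lower, and the BicR counts 104 higher and 26 lower. In BicR, leaving out 1 library gave totals of 48 without DHT at 24 h, 49 without DHT at 6 h and 64 without ethanol at 24 h, in place of 97.

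All 9 clusters called in LNCaP were among the 82 called in BicR. Of those 82, 78 had a change above 0 in LNCaP (median 0.62), against 50.1% of all 956 shared broad clusters. The lines have their own ethanol libraries, so these are separate measurements. In BicR the 9 had a median log2 change of 2.66 (1.34 to 4.27). Of the 15 called lower in BicR 13 were below 0 in LNCaP, with a median of −0.30, and none was called there. The difference between the lines' responses passed the test at no broad cluster (0% of all sites tested). The unadjusted p was below 0.05 at 107 of 956 broad clusters, a count not given over all sites, and with DESeq2 1 was called in each direction. Without the library of BicR with DHT and bicalutamide at 6 h, 1 passed. A stronger response in BicR was therefore not shown by the larger number of calls.

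**Figure D5:**
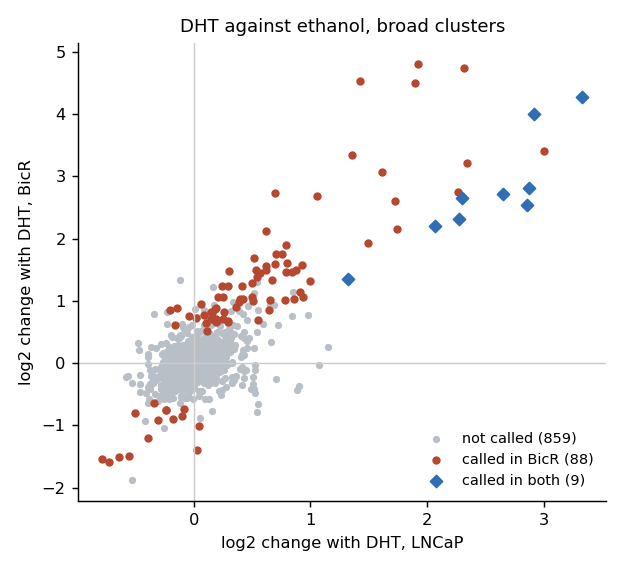
log2 change with DHT against ethanol in LNCaP (horizontal axis) and BicR (vertical axis) for 956 broad clusters, 2 libraries a treatment in each line. Red points are the 88 called in BicR alone, blue diamonds the 9 called in both lines, grey points the 859 not called; called rises lie almost all to the right of 0 in LNCaP as well.

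Led by log2 change, the DHT rises in LNCaP were at clusters on chromosomes 8 and 21 that were also called higher late with R1881. The 521 bp cluster at chr8:80992579-80993099 on the minus strand held 5.19 and 3.41 RPM with ethanol and 41.3 and 40.8 RPM with DHT in LNCaP at 6 and 24 h, and 4.81 and 2.41 against 58.8 and 86.5 RPM in BicR. No DHT library overlapped the ethanol libraries of its line. The log2 change was 3.33 in LNCaP (SE 0.44, adjusted p = 0.0175) and 4.27 in BicR (SE 0.44, adjusted p = 0.000868). In the time course it went from 2.37 and 7.99 RPM at 0 h to 25.02 and 109 RPM at 3 h and 543 and 814 RPM at 72 h.

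The other was the 376 bp cluster at chr21:42879811-42880186 on the minus strand. It held 35.7 and 38.0 RPM with ethanol and 300 and 245 RPM with DHT in LNCaP (log2 change 2.91, SE 0.39, adjusted p = 0.0175), and 15.5 and 14.7 against 246 and 248 RPM in BicR (4.01, SE 0.43, adjusted p = 0.000868). The lines thus reached a similar level with DHT from different starts. Its difference in response, 1.10 on the log2 scale (SE 0.55), had an adjusted p of 0.863. Both LNCaP calls were lost when any 1 of the 4 libraries was left out. With R1881 it was already at 723 and 429 RPM at 3 h, from 111 and 35.5 RPM at 0 h.

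The chr11:134094966-134095596 cluster, which had the largest rise of the named clusters in BicR, held 4.03 and 5.76 RPM with ethanol and 147 and 86.5 RPM with DHT there (log2 change 4.50, SE 0.56, adjusted p = 0.00157). In LNCaP it held 5.04 and 4.68 RPM with ethanol and 24.2 and 12.5 RPM with DHT, and the change missed the test (1.90, SE 0.60, adjusted p = 0.624). The 898 bp cluster at chr19:51358062-51358959 held 434 and 357 RPM with ethanol and 1504 and 2190 RPM with DHT in LNCaP (2.27, SE 0.21, adjusted p = 0.00168). In BicR it held 102 and 102 RPM with ethanol and 431 and 623 RPM with DHT (2.32, SE 0.21, adjusted p = 0.000322). It started lower in BicR, by a log2 difference of −1.88 with ethanol (SE 0.21, adjusted p = 0.000524), and the responses differed by 0.04 (SE 0.28).

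Falls with DHT in BicR were smaller. The 531 bp cluster at chr1:84638484-84639014 on the plus strand held 21.96 and 34.3 RPM with ethanol and 7.55 and 11.4 RPM with DHT (log2 change −1.58, SE 0.30, adjusted p = 0.0119), a call lost when 3 of the 4 libraries were left out in turn. The 570 bp cluster at chr3:3841036-3841605 on the plus strand held 89.7 and 112 RPM with ethanol and 34.7 and 35.0 RPM with DHT (−1.55, SE 0.13, adjusted p = 0.000322). In LNCaP it held 53.1 and 68.2 against 34.3 and 33.4 RPM (−0.78, SE 0.13, adjusted p = 0.0551). With R1881 it went from 121 and 79.6 RPM at 0 h to 3.06 and 6.18 RPM at 48 h (−4.18, SE 0.81, adjusted p = 0.0178).

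Clusters called higher with R1881 mostly had changes above 0 with DHT, and the 2 experiments share no library. Of the 56 broad clusters called higher at 48 h of R1881, 28 had an identifier in the second table. In LNCaP 27 of those 28 were above 0 with DHT, with a median log2 change of 0.87 and 3 called higher. In BicR 25 were, with a median of 1.52 and 17 called higher. Over all 956 shared broad clusters 50.1% were above 0 in LNCaP and 53.6% in BicR, and 0.941% and 8.58% were called higher. Of the 15 called lower at 48 h, 10 were in the second table, with medians of −0.08 in LNCaP and −0.23 in BicR. Of these 10, 6 were below 0 in LNCaP and 8 in BicR, and 2 were called lower in BicR, against 1.57% of all shared broad clusters. The pair on chromosome 1 fell late with R1881 and changed less with DHT, which was read at 6 and 24 h only. With R1881 the 590 bp cluster held 752 and 575 RPM at 0 h, 787 and 520 RPM at 6 h, and 117 and 104 RPM at 18 h. Androgen and times both differed between the experiments, so their parts cannot be told apart. In the second experiment the values were as follows. The 590 bp cluster held 359 and 550 RPM with ethanol and 446 and 452 RPM with DHT in LNCaP (log2 change 0.05, SE 0.14, adjusted p = 1), and 569 and 879 against 330 and 385 RPM in BicR (−1.02, SE 0.15, adjusted p = 0.00273). The 405 bp cluster held 34.8 and 32.1 against 32.7 and 24.0 RPM in LNCaP, and neither line's change passed the test.

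Without androgen the lines differed at many broad clusters, more often downward in BicR. With ethanol 47 were called higher in BicR than in LNCaP (4.92%, against 5.18% of clusters with like summed tags and 5.12% of all tested) and 77 lower (8.05%, against 5.13% and 5.88%). The share called higher was thus at the background and the share called lower above it. Widths and summed tags came from LNCaP libraries, and whether this favoured clusters with more tags in LNCaP was not tested. By width, 6.88% of clusters of 300 to under 400 bp, 8.72% of 400 to under 600 bp and 12.3% of at least 600 bp were lower in BicR, while 4.89%, 5.03% and 4.72% were higher. Called differences ran from 0.36 to 1.82 upward (median 0.65) and from −4.20 to −0.44 downward (median −0.80). Leaving out 1 library gave totals of 46 and 37 without LNCaP ethanol at 6 and 24 h and 39 without BicR ethanol at 6 h, in place of 124. Without the library of BicR with DHT and bicalutamide at 6 h, 63 were higher and 105 lower. For these smaller sets of libraries the shares over all sites are not given.

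The 2 largest named rises were at intermediate levels. The 513 bp cluster at chr5:107007711-107008223 on the minus strand held 134 and 181 RPM in LNCaP and 419 and 521 RPM in BicR (log2 difference 1.63, SE 0.20, adjusted p = 0.000791). The 396 bp cluster at chr3:153943380-153943775 on the plus strand held 82.2 and 87.2 RPM in LNCaP and 210 and 232 RPM in BicR (1.45, SE 0.20, adjusted p = 0.00149). With DHT it held 170 and 176 RPM in LNCaP and 207 and 233 RPM in BicR. Its DHT change was 1.07 in LNCaP (SE 0.20, adjusted p = 0.0691) and −0.04 in BicR.

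The 2 largest named falls left little signal in BicR. The 487 bp cluster at chr3:164913754-164914240 on the minus strand held 83.9 and 104 RPM in LNCaP with ethanol and 8.71 and 8.57 RPM in BicR (log2 difference −3.41, SE 0.62, adjusted p = 0.00613). Without BicR ethanol at 6 h the difference was −2.13 and the call was lost (adjusted p = 0.151), as it was with no time term (adjusted p = 0.0563). It was also uneven in the time course, at 245 and 29.8 RPM at 0 h and 3.04 and 0 RPM at 72 h, where it passed the test with the block (−6.94, SE 0.65, adjusted p = 3.76e-07) and not without it (adjusted p = 0.0993). The 497 bp cluster at chr12:81775889-81776385 on the plus strand held 75.6 and 144 RPM in LNCaP and 11.3 and 13.9 RPM in BicR (−3.02, SE 0.45, adjusted p = 0.0022).

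Part of the difference between lines went by chromosome. On chromosome 15, 2 of 28 broad clusters were higher in BicR with ethanol, with a median log2 difference of −0.36, and the other clusters there had a median of −0.37 (n = 211). On chromosome 9, 30 of 37 were higher (median 0.35; others 0.24), and on chromosome 2, 36 of 49 (0.17; others 0.25). On chromosome 1, 47 of 126 were higher (−0.10; others −0.13). On these 4 chromosomes, which were chosen after the values were seen, broad and other clusters leaned the same way. On chromosomes 3, 5, 10, 12 and X the 2 medians had opposite signs, each within 0.1 of 0. What lies behind these differences was not tested.

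Bicalutamide was present with DHT in 2 libraries of each line and alone in 2 more, and these values are given without a test. At the chr8:80992579-80993099 cluster LNCaP held 32.0 and 15.3 RPM with both compounds and 5.21 and 4.37 RPM with bicalutamide alone, close to its ethanol level. BicR held 27.9 and 60.5 RPM with both and 34.0 and 27.1 RPM with bicalutamide alone, above both of its ethanol libraries. At chr21:42879811-42880186 bicalutamide alone gave 30.5 and 43.7 RPM in LNCaP and 105 and 60.7 RPM in BicR. At chr19:51358062-51358959 it gave 467 and 450 RPM in LNCaP and 277 and 419 RPM in BicR, where ethanol stood at 102 and 102.

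The fitted spread was close in broad clusters and in clusters with like summed tags. The edgeR fit draws each cluster's estimate toward clusters of like level. Near equality was therefore largely built in and does not show that the spread was alike. The median biological coefficient of variation, the spread between libraries beyond counting error, was 0.37 in the R1881 fit both for broad clusters and for clusters with like summed tags, and 0.27 for both with the block. In the second experiment it was 0.10 for both.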

How the data were processed

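CAGE libraries of 2 prostate cancer lines were read on a HeliScope single-molecule sequencer, per the labels' protocols, and the authors deposited 2 tables that give, per cluster or site, raw tag counts and those counts scaled to library size (RPM) for each library. The genome build is hg19, per the submitters' processing notes; the aligner and clustering method are not given in the sources used here. Starts were 0-based and are printed 1-based; the number in each identifier was read as 0-based too. The members, the lists and the rule for named clusters were chosen with earlier results of these data known.

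Counts were tested with edgeR 4.0.16 (TMM, filterByExpr with a minimum count of 10, quasi-likelihood F test, Benjamini-Hochberg adjustment over all sites tested). The R1881 fit used a coefficient per time over 14 libraries; the second used a coefficient per line and treatment plus a time term per line over 16 libraries, the 2 at 0 h left out. Both fits were also run on simulated counts with independent libraries and the same spread at every site. That setting lacks the shared deviation of replicates given below, so it does not show how the fits perform with it. DESeq2 1.42.0 was an alternative, as were a replicate block, no filter on low counts, other widths and leaving out libraries. R1881 samples of one replicate number deviated together. The correlation was above 0.1 in 21 of 21 pairs of times, from 0.158 to 0.589 over 12707 clusters and from 0.141 to 0.594 over broad ones. The fit without the block does not take this into account. What the number stands for is not stated in the labels, and every replicate 1 library was shallower. A pairing of samples and a difference in depth therefore cannot be told apart. Clusters with like summed tags are the other nuclear clusters, weighted over 10 equal bins of summed tags to the broad clusters' numbers. Named clusters are the 3 widest, the 5 with most tags, the first 2 on each side of the width rule, and up to 2 called rises and 2 called falls, by log2 change, per late R1881, DHT and line comparison, with a mean of at least 10 RPM and groups that do not overlap (R1881) or the same direction at 6 and 24 h.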

Additional observations from a re-analysis of the deposited data

Results flagged for a closer look

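At the cluster at chr19:18496833-18497279 the DHT response differed in direction between the lines in every library pair, and this difference was singled out for that alone. On log2(RPM + 1) DHT against ethanol was 0.10 at 6 h and 1.22 at 24 h in LNCaP, and −0.0585 at 6 h and −0.403 at 24 h in BicR. The fitted difference was −0.95 (SE 0.37), which edgeR's test gave an adjusted p of 0.863 after adjustment over all sites, so it is not shown to differ.

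The bicalutamide libraries entered no comparison. At 4 of the named broad clusters in BicR both libraries with bicalutamide alone lay above both ethanol libraries. Their mean was also at least 2 times as high. Only named clusters were looked at, and most of these 4 were named for rises with DHT over ethanol. The share over all clusters is not given, so the number is not read against a background. The ratio of mean RPM, bicalutamide over ethanol, was 8.46 at chr8:80992579-80993099, 5.49 at chr21:42879811-42880186, 5.31 at chr11:134094966-134095596 and 3.42 at chr19:51358062-51358959. At the chromosome 11 cluster that ratio rests on the 6 h library, 44.6 RPM, against 7.33 RPM at 24 h and 4.03 and 5.76 RPM with ethanol. In LNCaP no named broad cluster met both conditions, although at chr19:51358062-51358959 the libraries with bicalutamide alone, at 467 and 450 RPM, also lay above those with ethanol, at 434 and 357 RPM. In BicR they lay below both ethanol libraries at chr1:84638484-84639014, chr3:3841036-3841605 and chr3:164913754-164914240, at 7.88 and 12.7, 37.7 and 61.8, and 3.01 and 3.02 RPM. The difference between lines in this response was not tested.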

How the results depend on the processing

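Counts of called broad clusters moved with most choices, and directions of the named clusters with none of those run. Those directions were checked only in the comparison that chose each cluster. The rule asked for groups that do not overlap or for the same direction at 6 and 24 h, so they were largely fixed in advance. Totals here come without the share over all clusters, so they do not show whether the excess of broad clusters held. With the replicate block the totals from 3 to 72 h were 12, 189, 81, 335, 258 and 360, in place of 0, 0, 13, 37, 71 and 76. DESeq2 gave 2, 29, 38, 110 and 110 from 3 to 48 h, 18 for DHT in LNCaP in place of 9, and 2 for the difference between the lines' DHT responses in place of 0; its other totals were within 1.5 times. With no low-count filter 6 were called at 6 h. With no time term DHT gave 4 in LNCaP and 52 in BicR, in place of 97, and the lines with ethanol differed at 38, in place of 124.

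Leaving out 1 library gave, from 6 to 72 h, 0 to 63, 0 to 6, 0 to 79, 11 to 25 and 16 to 43. For DHT it gave 0 to 1 in LNCaP and 48 to 65 in BicR, and for the lines with ethanol 37 to 83. Alternatives chosen after seeing the data were also run. Without the replicate 2 libraries of 6 and 18 h the totals were 36, 14, 152 and 209 at 12, 18, 48 and 72 h. Without the 4 shallowest libraries they were 214, 264, 112 and 170 at 6, 18, 48 and 72 h. Without BicR with DHT and bicalutamide at 6 h they were 20 for DHT in LNCaP and 1 for the difference between the lines' DHT responses. Bins of the second table's own tags left each median of the other clusters within its spread. The causes were not tested, apart from fewer libraries or clusters entering a fit.

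A width of at least 200 bp takes in more clusters and one of 500 bp fewer. The numbers tested and the shares called at these widths are not given, so the totals cannot be read as a gain or loss of response. At 200 bp the totals were 29, 83, 157 and 188 from 12 to 72 h, 184 for DHT in BicR and 332 for the lines. At 500 bp they were 3, 10, 24 and 24, then 5 and 31 for DHT in LNCaP and BicR and 32 for the lines. The mean tag share at 200 bp was 47.7, 47.5, 46.1, 49.0, 46.6, 54.5 and 55.3% from 0 to 72 h, and at 500 bp 6.77, 6.53, 6.98, 7.60, 7.24, 8.93 and 10.3%. The median log2 change at 200 bp was −0.031 at 12 h, −0.017 at 18 h and 0.073 at 48 h (others −0.059), and at 500 bp 0.15 at 48 h. For DHT in LNCaP it was −0.0044 and 0.0103. Values of named clusters kept their direction, and 15 of 72 left-out fits took a call below the threshold. The rule that chose these clusters largely fixed that direction in advance. Depth limits low clusters most in replicate 1, where 3 tags are worth up to 19.4 RPM.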
